A study of Mus musculus with 6 samples.

Results

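Synapsis and recombination genes encode the proteins that pair homologous chromosomes in meiosis and that make, repair and resolve the DNA breaks that end as crossovers. The set described here holds 41 such genes, taken by symbol from the 32285 features counted in mouse testis, and all 41 were present. By role they comprise 6 axis and cohesin genes, 6 genes of the transverse filament and central element, 3 genes of HORMA proteins and their remodeller, 8 of hotspot choice and break formation, 8 of end processing and strand invasion, 6 of crossover formation, 3 of telomere attachment, and the meiotic entry gene Meioc.

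RNA of single testis cells from 6 male mice of the inbred strain C57BL/6J was sequenced in droplets, where each captured transcript is counted once through its unique molecular identifier (UMI). The 3 nicotine mice were given 200 µg/mL nicotine in their drinking water for 8 weeks from 3 weeks of age, and the 3 control mice drank normal water. All 6 were of the same strain and sex and were sampled at 11 weeks. Each library came from both testes of a single mouse, which makes mice the replicates, and whole testes were dissociated without sorting by stage.

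In leptotene and zygotene of meiotic prophase, SPO11 cuts DNA at sites marked by PRDM9, the recombinase DMC1 coats the cut ends, and cohesin-based axes with SYCP2 and SYCP3 form along the chromosomes. In pachytene the axes are held together by SYCP1 and the central element proteins, and a few repair sites mature into crossovers with the help of MLH3. The cells then pass diplotene and the meiotic divisions and become round and later elongating spermatids, which no longer recombine.

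The libraries held 10823 to 12317 barcodes, of which 9848 to 11008 per mouse were kept as cells, 61945 in all, with medians of 2202 to 2901 UMIs. Of 68400 barcodes, 564 sequences occurred in 2 or more libraries. The 41 genes were kept out of the clustering and of the marker lists that gave clusters their "-like" names, and 14481 cells stayed unnamed. A shallow leptotene/zygotene-like cluster, described with the comparison of treatments, was left out of the stage order. An earlier leptotene/zygotene-like cluster (199 cells, median 3029 UMIs) and a later one (139 cells, 7863 UMIs) had 8 and 9 of 9 stage markers raised. In marker order they were preceded by 85 spermatogonium-like cells and followed by a joint leptotene/zygotene to pachytene-like cluster (240 cells, 25737 UMIs). Next came 3 pachytene-like clusters (635, 268 and 564 cells, medians of 5306, 5812 and 5080 UMIs) and a deep pachytene-like cluster (97 cells, 47940 UMIs). A diplotene/dividing-like cluster (377 cells, 15944 UMIs) came last. The spermatogonium-like cells (10 to 17 per mouse) had 11 of 14 markers raised. Their marker list shared Prss50 with that of leptotene/zygotene, and whether they included cells entering meiosis was not tested. The joint cluster had 5 of 9 leptotene/zygotene markers raised. The 3 pachytene-like clusters had 6, 6 and 5 of 11 pachytene markers raised and the deep one 4 of 11. The part of depth in levels across these clusters was not tested. Clusters whose median was under the 2467 UMIs of all kept cells are called low-UMI. Whether their barcodes held intact cells was not tested.

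The bases upstream of the genes were searched for motifs of transcription factors, among them factors known from meiotic entry and the cell cycle. RefSeq promoter windows (GRCm38.p6) matched 36 of the 41 genes, and the 250 bases before each start were searched on both strands. The E-box CACGTG was present in 8 of 36 (22.2%) and in 6.86% of 27025 genes with a window, and the E2F motif GGCGGGA in 9 of 36 (25%) against 11.0%. The STRA8-associated motif CNCCTCAG occurred in 5 of 36 (13.9%) against 7.39%, and the CRE motif TGACGTCA in 1 of 36 (2.78%) against 1.77%. The 8 genes with the E-box were 4930447C04Rik, Hormad1, Rec114, Stag3, Syce2, Sycp1, Sycp3 and Tex12. These are letter matches and no measure of binding. The stretches outside annotated exons are printed for Sycp1 (chr3:102936101-102936350, minus strand), Sycp3 (chr10:88459337-88459568, plus strand), Hormad1 (chr3:95559427-95559676, plus strand) and Tex12 (chr9:50561326-50561518, minus strand), the E-box genes with their highest mean level in the later leptotene/zygotene-like cluster. Prdm9 (chr17:15564355-15564604, minus strand) is printed beside them because it had no UMI in that cluster. Capitals mark matches to the E-box, the E2F motif and the STRA8-associated motif, and in Prdm9 the E2F match on the reverse strand and the STRA8-associated match overlap in 1 run.
Sycp1: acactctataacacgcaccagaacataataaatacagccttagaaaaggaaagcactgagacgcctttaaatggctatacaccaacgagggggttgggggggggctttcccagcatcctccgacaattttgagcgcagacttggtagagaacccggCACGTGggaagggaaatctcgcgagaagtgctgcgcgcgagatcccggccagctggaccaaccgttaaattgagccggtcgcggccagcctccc
Sycp3: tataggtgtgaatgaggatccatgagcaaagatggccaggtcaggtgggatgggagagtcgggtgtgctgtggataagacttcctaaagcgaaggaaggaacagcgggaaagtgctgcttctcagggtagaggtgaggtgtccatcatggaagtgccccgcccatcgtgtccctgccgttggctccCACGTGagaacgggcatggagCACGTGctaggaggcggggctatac
Hormad1: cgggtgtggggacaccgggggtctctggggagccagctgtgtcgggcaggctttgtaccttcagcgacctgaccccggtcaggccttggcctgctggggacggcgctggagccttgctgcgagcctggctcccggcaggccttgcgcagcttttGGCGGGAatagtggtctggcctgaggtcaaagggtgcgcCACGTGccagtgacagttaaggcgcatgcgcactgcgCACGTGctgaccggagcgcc
Tex12: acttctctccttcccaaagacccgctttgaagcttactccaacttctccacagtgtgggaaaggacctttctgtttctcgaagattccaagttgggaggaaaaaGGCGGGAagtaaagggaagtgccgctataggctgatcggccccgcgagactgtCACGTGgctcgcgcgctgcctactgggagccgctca
Prdm9: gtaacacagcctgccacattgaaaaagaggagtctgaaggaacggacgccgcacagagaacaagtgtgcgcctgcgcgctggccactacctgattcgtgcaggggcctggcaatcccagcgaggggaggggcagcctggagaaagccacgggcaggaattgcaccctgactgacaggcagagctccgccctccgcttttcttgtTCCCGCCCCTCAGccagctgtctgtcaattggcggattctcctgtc

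Levels are given as CPM, the UMIs of a gene per 1000000 UMIs after adding up the cells of 1 mouse in a cluster, as lowest, median and highest of the 6 mice. They were not divided by transcript length, so they compare clusters for 1 gene and not genes with each other, and levels across clusters are a description with no test. Summed over the 41 genes, the share of all UMIs was 1.32% ± 0.0451 (SD, n = 6 mice) in leptotene/zygotene-like cells and 0.707% ± 0.0307 in the joint cluster. It was 0.337% ± 0.00774 in pachytene-like, 0.28% ± 0.0125 in diplotene/dividing-like and 0.419% ± 0.0746 in spermatogonium-like cells. Round spermatid-like cells had 0.246% ± 0.00456 and elongating spermatid-like cells 0.186% ± 0.00665. Across genes, the log2 ratio of pachytene-like to joint cells had a Spearman's rho with gene length on the genome of 0.27 over 9004 genes. Over 30 of the 41 genes rho was 0.15, and the part of gene length was not tested.

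Somatic cells do not undergo meiosis, and UMIs of these genes in them serve as the background, to which free RNA in droplets can add. Whether somatic cells transcribe some of these genes themselves was not tested. The summed share was 0.0552% ± 0.00788 in 350 Leydig-like cells (median 7194.5 UMIs), the androgen-making cells between the tubules. In 4594 low-UMI Sertoli-like barcodes (median 952 UMIs), named for the nurse cells of the tubules, it was 0.242% ± 0.0132, close to the 0.259% ± 0.00456 of all kept cells. Both are set beside the spermatid and low-UMI levels. The low-UMI Sertoli-like share was 0.246%, 0.241% and 0.216% in control and 0.248%, 0.254% and 0.246% in nicotine mice. The groups did not overlap but meet at 0.246% to the digits given, and the part of this share in the comparisons of treatment was not tested.

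Of the 41 genes, 31 had their highest mean level in 1 of the leptotene/zygotene-like clusters when 9 clusters from spermatogonium-like to diplotene/dividing-like were compared, 20 in the earlier and 11 in the later one. Another 5 were highest in spermatogonium-like cells (Rec8, Trip13, Mei1, Rec114 and Tex11), 3 in the joint cluster (Spo11, Hsf2bp and Psmc3ip), Mlh3 in the third pachytene-like cluster and Syce1 in diplotene/dividing-like cells. For 24 genes the mice of the highest and the next cluster overlapped, so the order of those clusters is not separated. The highest cluster was the same in all 6 mice for 19 genes. At an equal depth of 1000 UMIs, the share of cells with a UMI was highest in the same cluster for 36 genes.

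**Figure D1:**
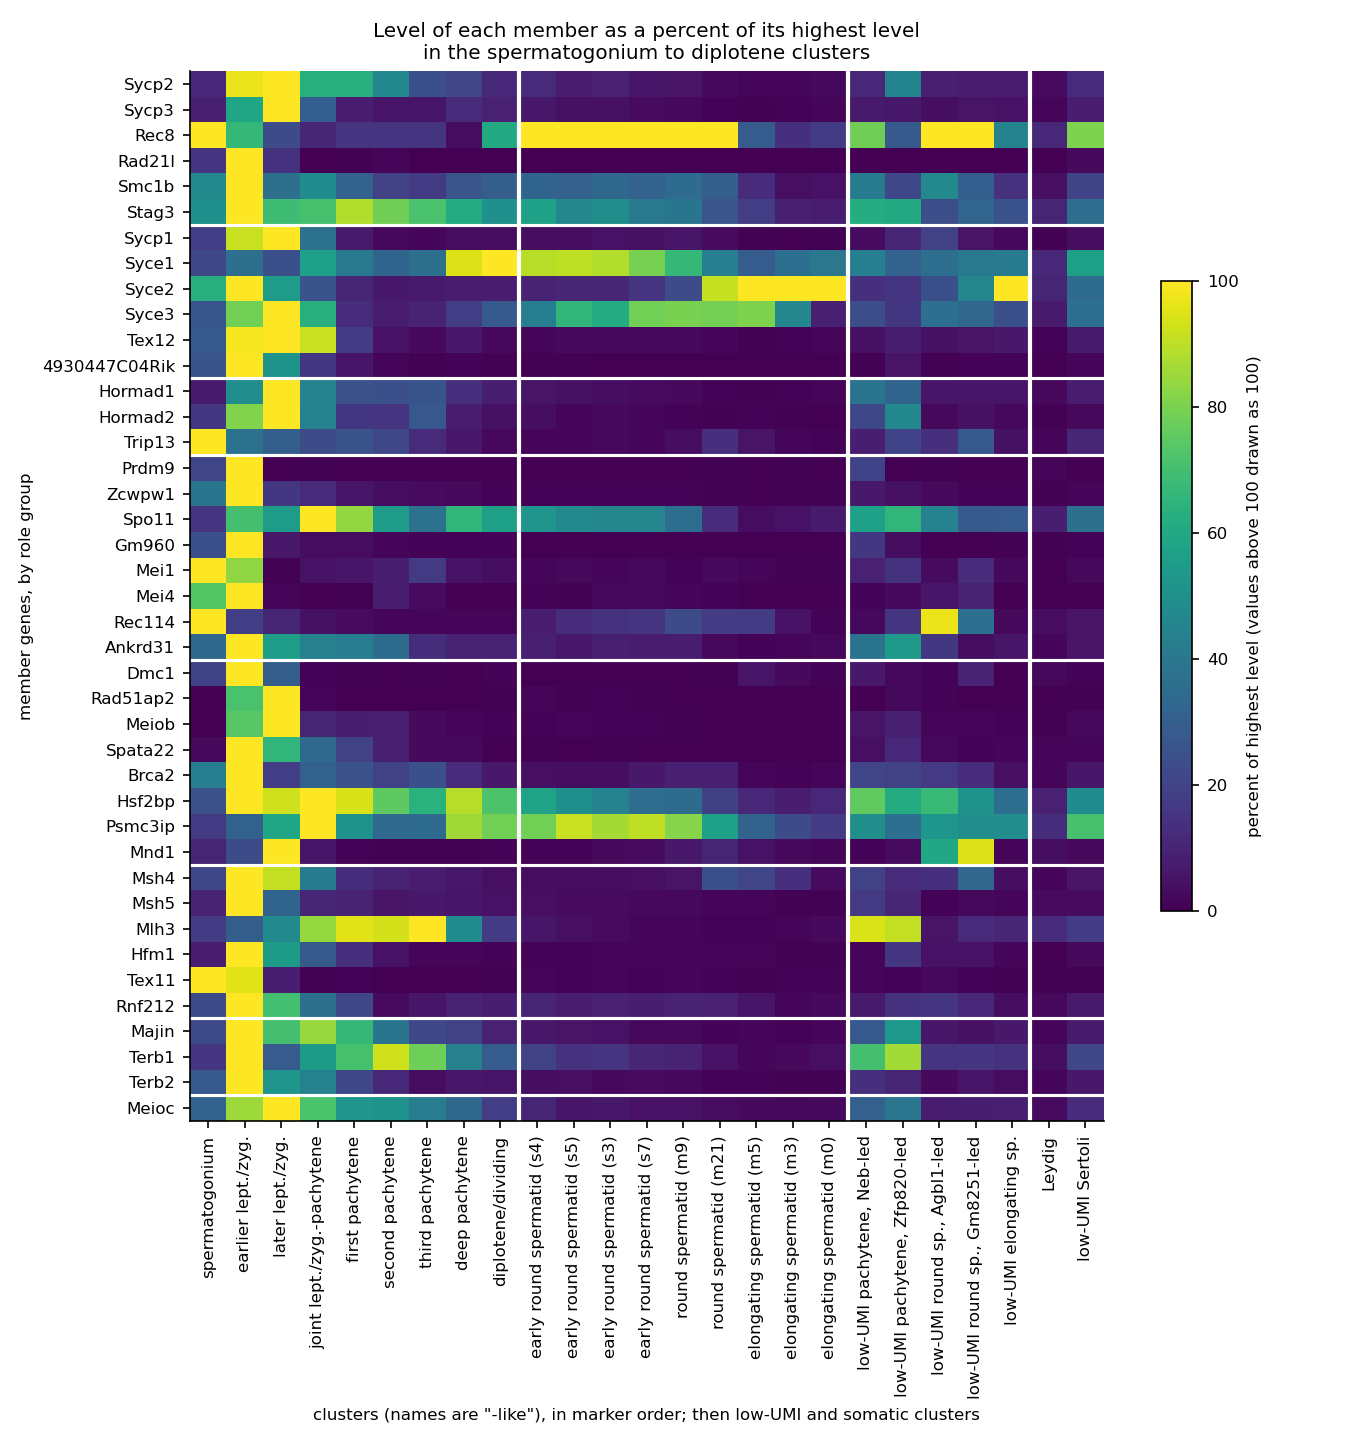
Mean level of each of the 41 genes (rows, by role group) in clusters along the marker order, then low-UMI and somatic clusters (columns), as a percent of the gene's highest level in the first 9 columns, with higher values drawn as 100. The earlier and later leptotene/zygotene columns hold the highest level of 31 rows, and Rec8 and Syce2 reach 100 again in spermatid columns.

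The genes divided between the earlier and the later leptotene/zygotene-like cluster. Within mice, 17 of the 39 genes that reached 10 CPM as a mean of both clusters were higher in the earlier cluster in all 6 mice (18.8% of the 9426 genes measured there). Another 5 of the 39 were higher in the later cluster in all 6 mice, namely Mnd1, Hormad1, Sycp3, Psmc3ip and Meiob (14.7% of all genes). The median log2 ratio of later to earlier was -0.51 over the 39 and -0.12 over all genes. Rec8 and Rec114 were under the minimum. The 2 clusters also differed in depth, with medians of 3029 and 7863 UMIs. The part of depth and of gene length in this division was not tested.

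Hotspot and break formation genes include those with the largest such ratios. Prdm9, the methyltransferase that marks hotspots, was at 74, 108 and 196 CPM in the earlier cluster, from 103 UMIs. In the later cluster it had 0 UMIs in all 6 mice. The mean level in the earlier cluster was 53.6 times a floor of 3 counts over the whole later cluster (2.23 CPM). This is no lower bound for single mice. In spermatogonium-like cells it was at 0, 28.7 and 49.3 CPM.

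Zcwpw1, a reader of the PRDM9 marks, was at 218, 339 and 424 CPM in the earlier and 30.6, 47.4 and 112 CPM in the later cluster. Gm960, which encodes the SPO11 partner TOPOVIBL, was at 155, 181 and 277 CPM and 3.53, 14 and 22.4 CPM. For both genes the lowest mouse of the earlier cluster lay above the highest of the later one.

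Mei1, needed for break formation, was at 49.3, 89.5 and 171 CPM in spermatogonium-like cells, 49.3, 76.6 and 119 CPM in the earlier cluster and 0, 0 and 4.04 CPM in the later one. Mei4, of the same break machinery, was at 23.3, 64.3 and 106 CPM and 0, 0 and 4.48 CPM in these 2 clusters. Most mice thus had no UMI of either gene in the later cells. Rec114, the partner of MEI4, was highest in spermatogonium-like cells at 35.3, 56.6 and 107 CPM and had 0, 14.6 and 19.9 CPM in the earlier cluster, without overlap. Ankrd31, whose protein binds REC114, was at 456, 560.4 and 658 CPM in the earlier and 202, 333 and 389 CPM in the later cluster.

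Spo11, the catalytic subunit that makes the breaks, had another course than most of its group. It was at 48.9, 84.1 and 115 CPM in the earlier, 97.2, 114 and 143 CPM in the joint and 72.7, 103 and 116 CPM in the first pachytene-like cluster, which overlap. In diplotene/dividing-like cells it was still at 42.2, 69.4 and 80.7 CPM. Counts per gene do not tell its splice forms apart.

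Among strand invasion genes, Dmc1, the meiotic recombinase, was at 344, 409.6 and 505 CPM in the earlier, 91.8, 117 and 169 CPM in the later and 0.70, 3.23 and 10.4 CPM in the joint cluster. No mouse of a later cluster reached the range of the one before. Brca2, which loads recombinases, was at 296, 339 and 538 CPM and 60.6, 67.3 and 78.8 CPM in the first pair. Mnd1, a cofactor of DMC1, had the opposite order, with 21.2, 30.9 and 49.3 CPM in the earlier and 107, 142 and 189.9 CPM in the later cluster.

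Psmc3ip encodes HOP2, the partner of MND1, and the courses of this pair parted after the later leptotene/zygotene-like cluster. Psmc3ip was at 139, 194 and 227 CPM in the earlier, 339, 354 and 404 CPM in the later and 547, 617 and 668 CPM in the joint cluster. In that joint cluster Mnd1 was at 4.27, 7.85 and 13.4 CPM, below all mice of the later cluster. Rad51ap2 had 0 UMIs in spermatogonium-like cells and 157, 241 and 266 CPM in the later cluster.

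Meiob, which encodes a single-strand DNA binding protein, was at 169, 221 and 299 CPM in the earlier and 245, 326 and 339 CPM in the later cluster. Its partner Spata22 was at 46.6, 64.7 and 97.8 CPM and 28.2, 46.3 and 55.1 CPM. The ranges of the clusters overlapped for both genes. Hsf2bp, whose protein binds BRCA2, had medians of 153, 154 and 100.2 CPM in the earlier cluster, the joint cluster and the third pachytene-like cluster.

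Among axis genes, Sycp3 was at 1013, 1633 and 1819 CPM in the earlier and 1988, 2708 and 2884 CPM in the later cluster, without overlap. It was at 708, 784 and 861 CPM in the joint and 157, 221 and 236 CPM in the first pachytene-like cluster. Its axis partner Sycp2 was at 921, 1112 and 1222, then 981, 1111 and 1272 CPM in the leptotene/zygotene-like pair, which overlap, and at 593, 743 and 793 CPM in the first pachytene-like cluster. Sycp2 was therefore closer to its highest level in that pachytene-like cluster than Sycp3 was.

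Smc1b, a meiotic cohesin subunit, was at 973, 1127 and 1329 CPM in the earlier and 367, 397 and 510.4 CPM in the later cluster. Stag3, another subunit, was at 197, 327 and 440.1 CPM in the earlier and 268, 297 and 311 CPM in the first pachytene-like cluster, which overlap. Rad21l, a meiotic kleisin, was at 23.3, 43 and 56.6 CPM in the earlier and 0, 6.28 and 12.7 CPM in the later cluster, without overlap. The other kleisin, Rec8, was at 0, 13.5 and 45.2 CPM in spermatogonium-like cells, 4.99, 12 and 17.5 CPM in the earlier and 0, 1.78 and 3.28 CPM in the joint cluster.

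Sycp1, the transverse filament, was at 1593, 1818 and 2169 CPM in the earlier and 1879.7, 2034 and 2219 CPM in the later cluster, which overlap. It was at 696, 749 and 885 CPM in the joint, 121, 142 and 173 CPM in the first and 18.1, 26.9 and 32 CPM in the third pachytene-like cluster. Each of these ranges lay below the one before. The central element genes did not share 1 course. 4930447C04Rik, known as Six6os1, was at 755, 876 and 1002 CPM in the earlier and 327, 479.9 and 508 CPM in the later cluster. Tex12 had medians of 252 and 246 CPM there, and Syce3 of 390.1 and 512 CPM.

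Syce1, another central element gene, was at 179, 214 and 277 CPM in the earlier and 105, 140 and 180 CPM in the later cluster. In diplotene/dividing-like cells it was at 517, 590.4 and 631 CPM, above all mice of both. The deep pachytene-like cluster came next at 525, 556 and 578 CPM and overlapped with it.

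Hormad1, whose protein marks unsynapsed axes, was at 439, 507 and 626 CPM in the earlier and 877, 1093 and 1179.5 CPM in the later cluster, without overlap, and at 224, 286 and 290.4 CPM in the third pachytene-like cluster. Hormad2 had medians of 311, 397 and 105 CPM in these clusters. Trip13, the ATPase that remodels HORMA proteins, was instead highest in spermatogonium-like cells at 67.6, 89.6 and 181 CPM, and had 15, 39.8 and 65.2 CPM in the earlier cluster.

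Crossover genes held early and late courses. Tex11, an X-linked gene, was at 106, 227 and 362 CPM in spermatogonium-like and 156, 219 and 244 CPM in earlier leptotene/zygotene-like cells, which overlap, and at 3.53, 15.3 and 38 CPM in later ones. Msh4 and Msh5, whose proteins form 1 complex, had medians of 98.5 and 199 CPM in the earlier and 92.3 and 60.1 CPM in the later cluster. For Hfm1, a helicase, and Rnf212, a ligase gene, the medians were 404 and 72.1 CPM and then 231 and 41.4 CPM.

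Mlh3, which acts late in crossover formation, was at 15, 50 and 75.8 CPM in the earlier, 117, 137 and 155 CPM in the joint and 132, 162 and 191 CPM in the third pachytene-like cluster. The last 2 overlapped and both lay above the earlier cluster. In diplotene/dividing-like cells it was at 8.43, 29.5 and 41.3 CPM.

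Of the telomere attachment genes, Majin and Terb2 had medians of 82.6 and 83.6 CPM in the earlier and 19.2 and 3.13 CPM in the third pachytene-like cluster. Terb1 was at 113, 133 and 169 CPM in the earlier, 17.9, 39.4 and 59.1 CPM in the later and 87.6, 103 and 122 CPM in the third pachytene-like cluster, so that the later cluster was the lowest of these. Meioc, which prolongs the meiotic programme, was at 42.3, 136 and 181 CPM in spermatogonium-like, 359, 401 and 416 CPM in later leptotene/zygotene-like and 51.3, 75.6 and 81.5 CPM in diplotene/dividing-like cells.

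**Figure D2:**
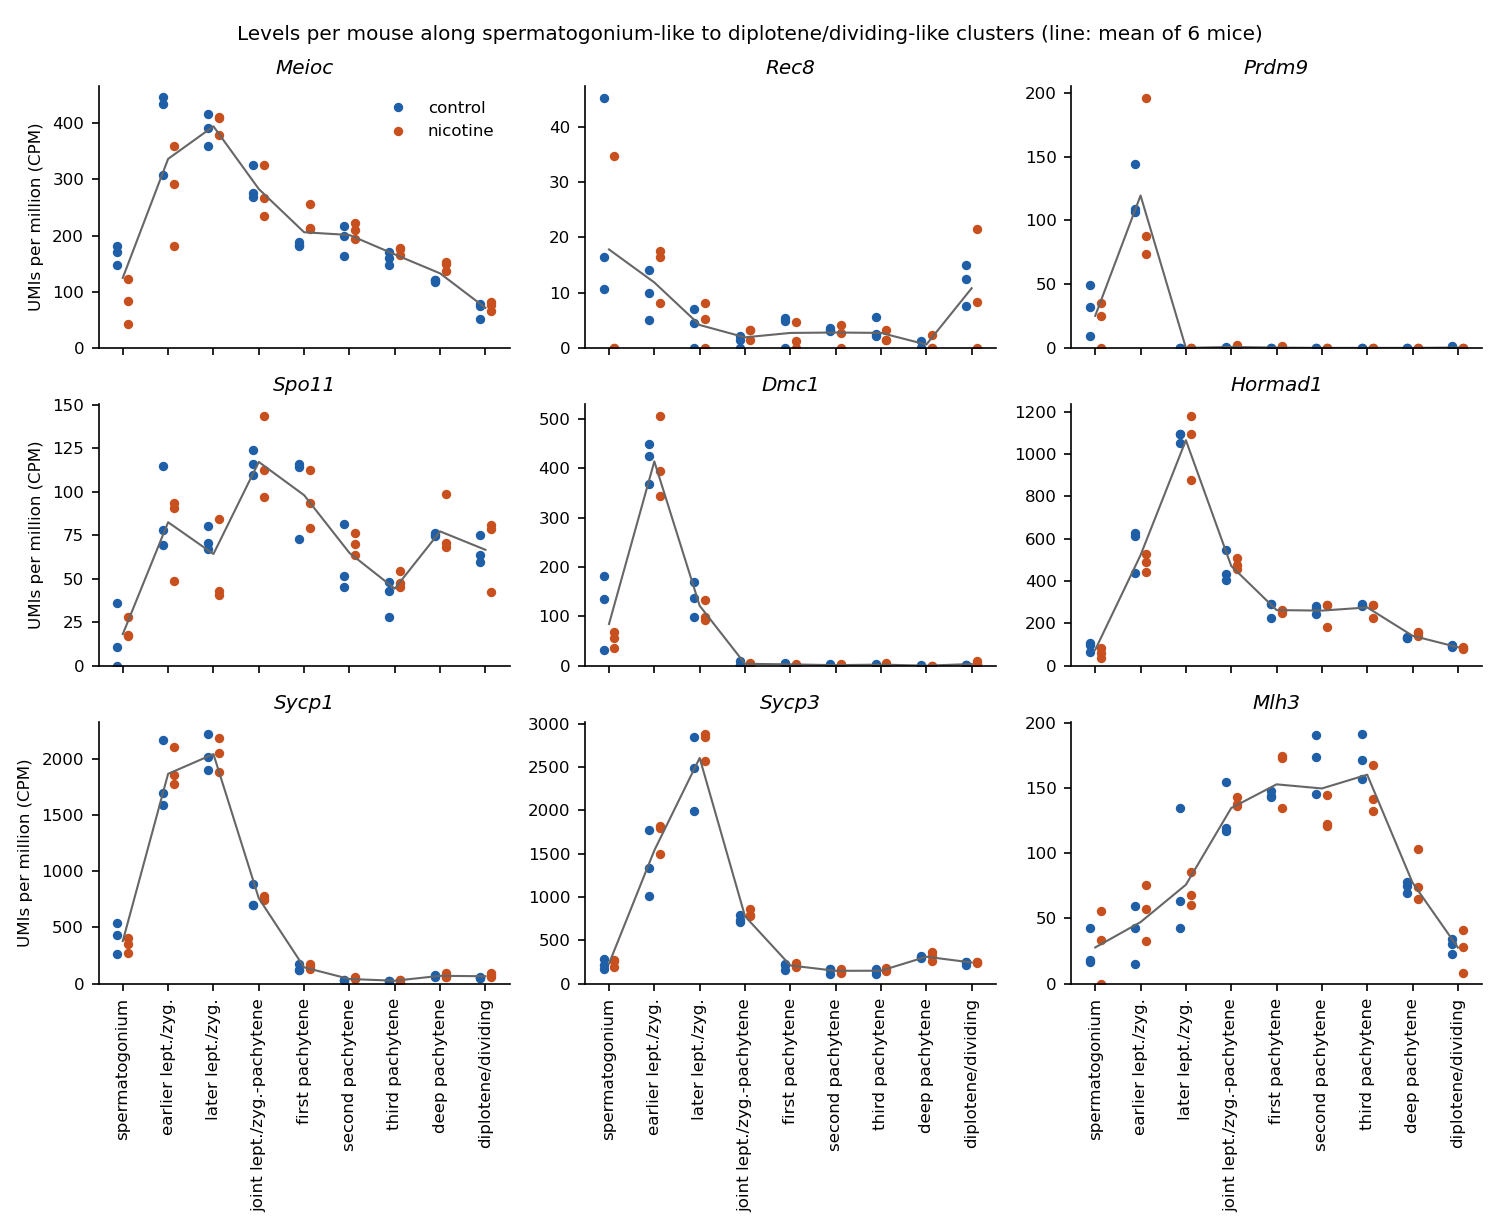
Level (CPM, axis from 0) of 9 genes in each mouse (points; control blue, nicotine orange) and the mean of the 6 mice (line) across 9 clusters in marker order. Prdm9 and Dmc1 are highest in the earlier and Sycp3 and Hormad1 in the later leptotene/zygotene column, and Mlh3 is highest in the third pachytene column.

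In round spermatid-like cells (6546 cells, median 17676.5 UMIs) 5 genes were at 50% or more of their highest level among the 9 ordered clusters, spermatogonium-like cells included, namely Rec8, Syce1, Syce2, Syce3 and Psmc3ip. Rec114, highest in spermatogonium-like cells, was at 9.98, 12.6 and 14.7 CPM in round spermatid-like and 0, 14.6 and 19.9 CPM in earlier leptotene/zygotene-like cells, its highest spermatocyte cluster. These overlap. At 5% or more were 16 genes, against 9 in Leydig-like cells. Sycp3 had 36.5 CPM ± 3.19 (SD, n = 6 mice), beside 30.9 CPM in Leydig-like and 198 CPM in low-UMI Sertoli-like cells. At 2 times the higher of these somatic levels or more were 5 of 41 genes, Rec8, Syce3, Rec114, Mnd1 and Msh4. Against Leydig-like cells alone, 20 of 41 were at 2 times or more. Syce1 was at 313 CPM beside 333 CPM in low-UMI Sertoli-like and 66.2 CPM in Leydig-like cells, and Psmc3ip at 418 beside 436 and 81.6 CPM.

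Rec8 was at 48.2, 51.7 and 54.7 CPM in round spermatid-like cells, from 7595 UMIs. That lay above all mice of the diplotene/dividing-like cluster, at 0, 10.4 and 21.5 CPM, and of the spermatogonium-like one. Leydig-like cells had 0, 2.45 and 3.9 CPM and low-UMI Sertoli-like cells 5.44, 12.1 and 31.5 CPM. A Rec8 UMI was seen in 60.8% of round spermatid-like, 1.43% of Leydig-like and 1.37% of low-UMI Sertoli-like cells, and after thinning to 1000 UMIs in 5.06%, 0.174% and 1.36%. In elongating spermatid-like cells (12071 cells, median 8006 UMIs) Rec8 was at 2.3, 3.3 and 3.69 CPM.

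Syce3 was at 302, 436 and 478 CPM in round and 181, 261 and 296 CPM in elongating spermatid-like cells, after 25.5, 51.4 and 77.1 CPM in the third pachytene-like cluster. Its somatic means were 37.5 CPM in Leydig-like and 189 CPM in low-UMI Sertoli-like cells.

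Syce2, a further central element gene, was highest after meiosis. It was at 542, 579.9 and 668 CPM in the earlier leptotene/zygotene-like and 49.1, 58.8 and 75 CPM in the first pachytene-like cluster. Round spermatid-like cells had 323, 368 and 384 CPM, elongating ones 909.8, 960.1 and 1069.7 CPM and low-UMI elongating ones 3670.5, 3966 and 4232 CPM. Each range lay above the one before, and the last pair lay above the leptotene/zygotene-like cells as well. Leydig-like and low-UMI Sertoli-like cells had means of 60.8 and 207 CPM.

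A Syce2 UMI was present in 97.5% of low-UMI elongating spermatid-like and 17.7% of low-UMI Sertoli-like barcodes, and in 96.2% and 18% after thinning to 1000 UMIs. Syce2 gave 72.0% of the UMIs of the 41 genes in the first of these and 52.4% in elongating spermatid-like cells. The gene lies at chr8:84872111-84888221 on the plus strand (GRCm38) and overlaps Gcdh on the other strand. Gcdh had 0.156 CPM in low-UMI elongating spermatid-like and 36.6 CPM in Leydig-like cells. Strand use in counting is not stated in the sources used, and 22 of the 41 genes overlap a gene on the other strand.

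**Figure D3:**
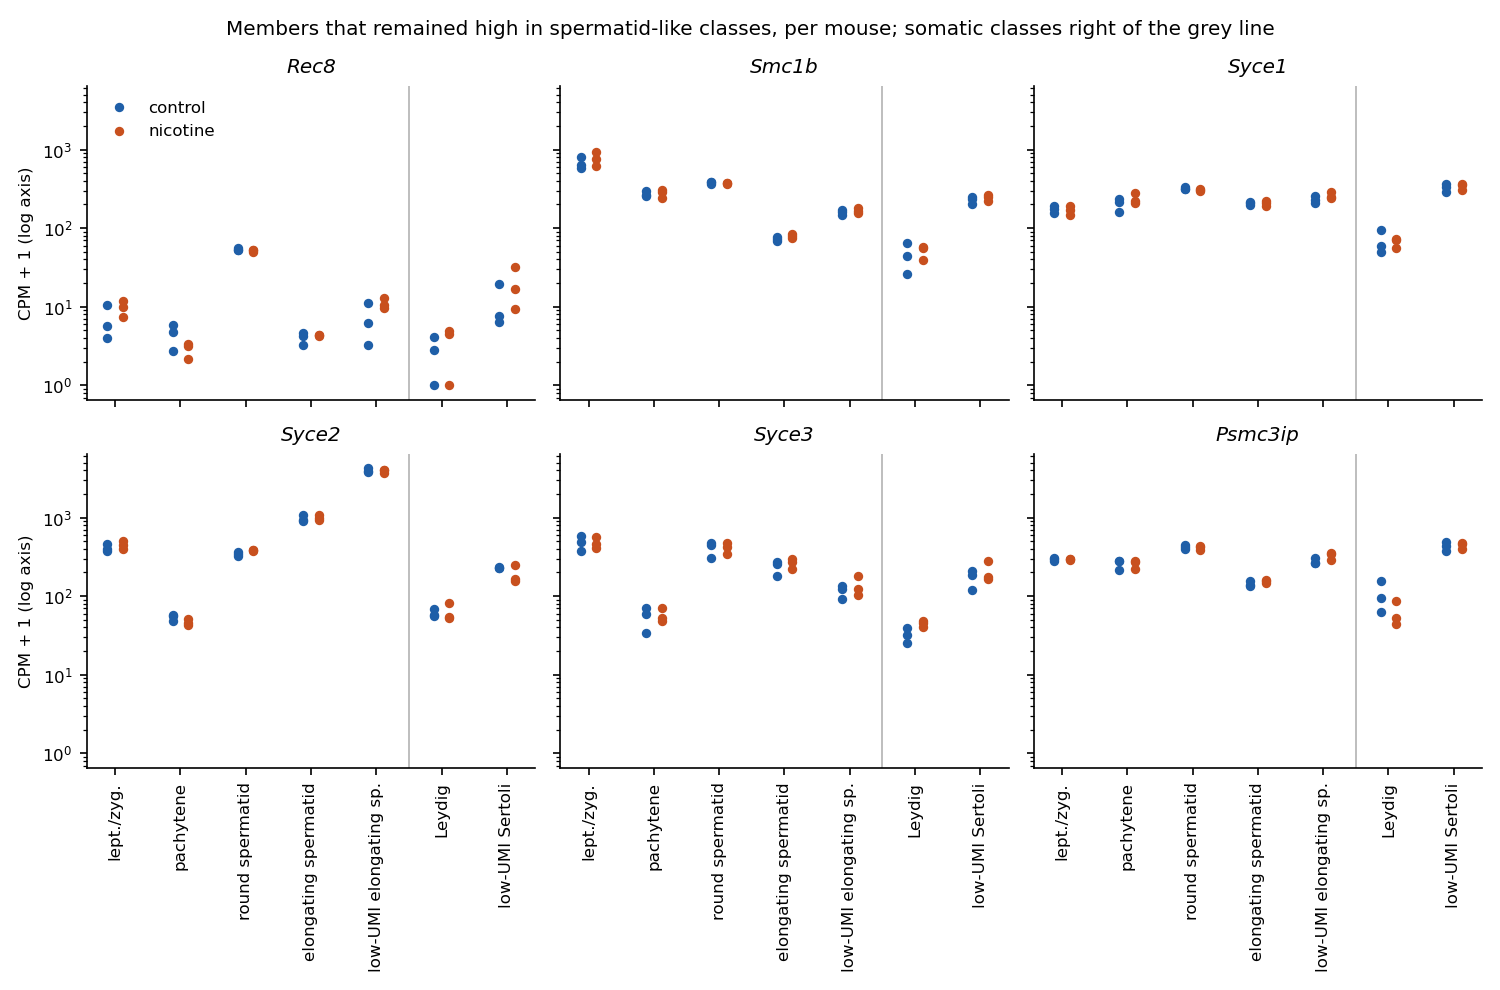
CPM + 1 on a log axis for 6 genes in each mouse (points; control blue, nicotine orange) across germ cell classes and, right of the grey line, Leydig-like and low-UMI Sertoli-like cells. Syce2 is highest in low-UMI elongating spermatid-like cells and Rec8 in round spermatid-like cells, while Syce1 and Psmc3ip have means in round spermatid-like cells below those of low-UMI Sertoli-like cells.

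Among the low-UMI clusters, the 2230 low-UMI pachytene-like barcodes (median 1795 UMIs) had a median log2 ratio to 1467 pachytene-like cells (5330 UMIs) of 0.02 over 30 of the genes and 0.07 over 9598 genes. Of their 2 clusters, the one led by Zfp820 had 6 of 11 pachytene markers raised and the one led by Neb 5 of 11. Levels in these clusters differed. In the one led by Zfp820 (821 barcodes), Sycp2 was at 419, 501 and 605 CPM and Sycp1 at 163, 219 and 244 CPM. In the one led by Neb (1409 barcodes), they were at 104, 129 and 170.4 CPM and 27.1, 62.9 and 78.3 CPM, without overlap for either gene. Hfm1 had means of 64.6 and 5.41 CPM in these clusters. Across genes, the log2 ratio of each cluster to pachytene-like cells was set against gene length on the genome. Spearman's rho was 0.325 over 9428 genes in the Zfp820-led and -0.0819 over 9573 genes in the Neb-led cluster. Over 28 and 31 of the synapsis and recombination genes it was 0.407 and -0.120. The part of gene length in the difference between these clusters was not tested.

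Unlike Sycp2, Sycp1 and Hfm1, Prdm9 was higher in the Neb-led cluster, at 18.4, 23.1 and 33 CPM from 68 UMIs. It had 1 UMI in the Zfp820-led cluster and 2 UMIs in low-UMI Sertoli-like barcodes. A Prdm9 UMI was present in 4.4% of Neb-led and 0.0435% of low-UMI Sertoli-like barcodes, and in 2.51% and 0.0447% after thinning. Gm960 was at 24.8, 28.9 and 46.1 CPM in the Neb-led and 0, 4.34 and 20.9 CPM in the Zfp820-led cluster. Mlh3 was at 124, 159 and 167 CPM and Hormad1 at 378, 402 and 482 CPM in the same Neb-led barcodes. In pachytene-like cells these were at 135, 154 and 175 and 236, 273 and 289 CPM. Pooled over mice, Prdm9 was at 0.109 and Gm960 at 3.94 CPM in pachytene-like cells. The name of the Neb-led cluster rests on its markers alone, and whether its barcodes mixed stages was not tested.

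In low-UMI round spermatid-like barcodes (2751, median 1399 UMIs) the median log2 ratio to round spermatid-like cells was 0.73 over 23 of the genes and 0.27 over 9587 genes. Across genes, which are not independent replicates and share the same libraries, the ratio went with the length of the gene on the genome, with a Spearman's rho of 0.51 over the 23 and 0.47 over 9578 genes. The part of gene length in these ratios was not tested. Sycp1, which spans 117602 bases, was at 348, 410.2 and 445 CPM in the Agbl1-led cluster (1033 barcodes), 89.7, 109.9 and 139 CPM in the Gm8251-led one (1718 barcodes), 76.2, 85.7 and 91.3 CPM in round spermatid-like cells and 65.8 CPM in low-UMI Sertoli-like cells. The Agbl1-led range lay above the others, and the Gm8251-led range overlapped that of round spermatid-like cells.

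Mnd1 was at 77, 85.6 and 93.6 CPM in the Agbl1-led and 95.9, 143 and 158 CPM in the Gm8251-led cluster, against 11.2, 12.3 and 15 CPM in round spermatid-like cells and a mean of 3.63 CPM in low-UMI Sertoli-like cells. Rec114 was at 49.4, 56.9 and 84.3 CPM in the Agbl1-led and 11.6, 20.4 and 37.3 CPM in the Gm8251-led cluster, 9.98, 12.6 and 14.7 CPM in round spermatid-like and 3.44 CPM in low-UMI Sertoli-like cells. Dmc1 was at 26.7, 35.2 and 59.5 CPM in the Gm8251-led and 2.4, 2.88 and 5.41 CPM in the Agbl1-led cluster, 0.754, 1.16 and 1.83 CPM in round spermatid-like and 4.29 CPM in low-UMI Sertoli-like cells. Both low-UMI ranges of Mnd1 lay above that of round spermatid-like cells. The Agbl1-led range of Rec114 and the Gm8251-led range of Dmc1 did so too, while the Gm8251-led range of Rec114 overlapped it and Dmc1 in the Agbl1-led cluster, from 7 UMIs, had a mean below that of low-UMI Sertoli-like cells.

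In low-UMI elongating spermatid-like barcodes (4696, median 1276.5 UMIs) the median log2 ratio to elongating spermatid-like cells was 1.30 over 15 of the genes and 0.42 over 6761 genes. Syce2 was the 1 gene of 41 there at 2 times the higher somatic level or more. The unnamed clusters led by Ttn, hemoglobin and mitochondrial genes had 11, 3 and 2 such genes.

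Control and nicotine mice were compared within 15 germ cell classes that had at least 20 cells in every mouse, by edgeR's quasi-likelihood test on summed UMIs over all genes, to ask whether these transcripts differed with nicotine at a given stage. At an adjusted p of 0.05, edgeR called 0 of the genes in every class, of 14 to 39 tested, and DESeq2 called 0 as well. At an unadjusted p of 0.05, edgeR had 0 to 3 of them per class and DESeq2 0 to 2. Of all genes tested, edgeR called 0% of 6613 in leptotene/zygotene-like and 0% of 10341 in pachytene-like cells, 0.0109% in low-UMI pachytene-like, 0.0133% in elongating, 0.0571% in low-UMI elongating and 0.679% in low-UMI round spermatid-like classes, and 0% in the other classes. Of 52 other pathway genes, such as Brca1, Blm and Atm, 16 to 50 were tested per class. Both edgeR and DESeq2 called 0 of them, with 0 to 5 and 0 to 3 per class at an unadjusted p of 0.05.

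In leptotene/zygotene-like cells the log2 fold changes (nicotine minus control) of 37 genes lay between -0.51 and 0.47 with a median of 0.04, beside 0.00 over all genes. Their 95% intervals stayed within 2-fold either way for 35 of 37. In pachytene-like cells the range was -0.20 to 0.39 and the median 0.03, and 31 of 31 intervals stayed within 2-fold. For leptotene/zygotene-like cells, Sycp3 had a log2 fold change of 0.16 (-0.16 to 0.48), Sycp1 of 0.01 (-0.30 to 0.32) and Dmc1 of -0.06 (-0.39 to 0.28), with 95% intervals in parentheses. Hormad1 had -0.12 (-0.42 to 0.19), Meioc -0.17 (-0.48 to 0.15) and Prdm9 0.04 (-0.67 to 0.75). Every one of these intervals included 0, and differences within them were not detectable at this depth.

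The summed share of the 41 genes in leptotene/zygotene-like cells was 1.28%, 1.25% and 1.36% of UMIs in the control and 1.36%, 1.34% and 1.32% in the nicotine mice. The groups overlapped there and in the other 14 classes tested. Among all the single clusters pooled into these classes, 2 did not overlap. These shares were not tested, and 3 against 3 mice allow no exact permutation p below 0.1. In later leptotene/zygotene-like cells the share was 1.25%, 1.25% and 1.21% in control and 1.26%, 1.31% and 1.25% in nicotine mice. To the digits given, these groups meet at 1.25%. In 1 elongating spermatid-like cluster (1434 cells) the share was 0.191%, 0.188% and 0.189% in control and 0.198%, 0.197% and 0.197% in nicotine mice. In low-UMI Sertoli-like cells, which serve as background, it was 0.246%, 0.241% and 0.216% in control and 0.248%, 0.254% and 0.246% in nicotine mice. These groups did not overlap either but meet at 0.246% to the digits given, and the part of this background in the other shares was not tested.

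**Figure D4:**
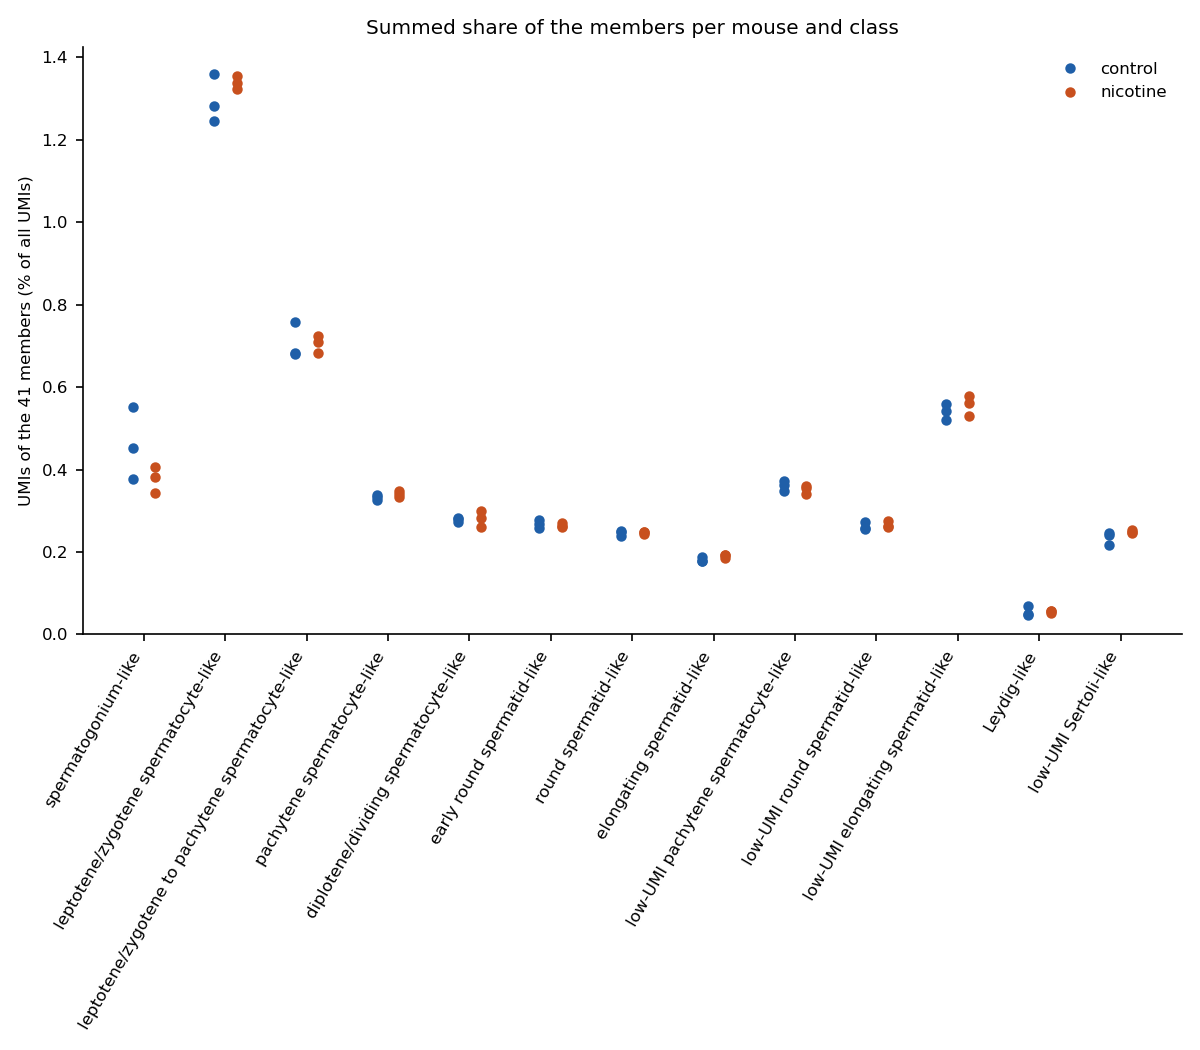
Share of all UMIs (%) that came from the 41 genes, 1 point per mouse (control blue, nicotine orange), by class. Leptotene/zygotene-like cells stand highest at a mean of 1.32% and Leydig-like cells lowest at 0.0552%, and the groups overlap in the germ cell classes shown.

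Genes whose nicotine mice all lay on 1 side of the control mice were 3 of 37 in leptotene/zygotene-like cells, where 9.75% of all genes tested did so. Tex12, of the central element, was at 247, 219 and 229 CPM in control and 249, 295 and 248 CPM in nicotine mice, a log2 fold change of 0.19. Spo11 was at 73, 77 and 89.6 CPM in control and 70.3, 56.9 and 68.7 CPM in nicotine mice (-0.29), and Mei1 at 33, 35.5 and 37.7 CPM in control and 28.7, 19 and 26.9 CPM in nicotine mice (-0.51). All 3 had an edgeR adjusted p of 0.996. None passed the test, and 3 of 37 is a smaller share than that over all genes.

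In the joint cluster 2 of 31 genes did not overlap (background 8.06%). Spata22 was at 17.1, 20.1 and 18.9 CPM in control and 25.5, 29.8 and 27.8 CPM in nicotine mice, a log2 fold change of 0.57 (standard error 0.22, edgeR adjusted p = 0.999). Syce1 was at 364, 341 and 329.8 CPM in control and 308, 319.9 and 326 CPM in nicotine mice (-0.12). In the shallow leptotene/zygotene-like cluster (488 cells, median 2496 UMIs) 1 of 24 did not overlap (background 6.86%). This was Hsf2bp, at 149, 119 and 160.2 CPM in control and 197, 174 and 179 CPM in nicotine mice (0.36, edgeR adjusted p = 1.00).

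Among pachytene-like cells 2 of 31 genes did not overlap (background 10.2%). Meioc was at 173, 172 and 186 CPM in control and 197, 210.3 and 198 CPM in nicotine mice, a log2 fold change of 0.19 (edgeR adjusted p = 0.962), and Terb2 at 9.79, 10.3 and 10.5 CPM in control and 10.5, 11.4 and 11.5 CPM in nicotine mice (0.13). In diplotene/dividing-like cells 4 of 20 did not overlap (background 10.8%). Sycp1 was at 49.6, 59.3 and 51.8 CPM in control and 78.7, 61.9 and 95.1 CPM in nicotine mice (0.49, standard error 0.18, edgeR adjusted p = 0.997). Brca2 was at 19.6, 23.6 and 18.8 CPM in control and 28.1, 29.6 and 26.9 CPM in nicotine mice (0.42), and Psmc3ip at 496, 522 and 488 CPM in control and 455, 487 and 455 CPM in nicotine mice (-0.11). The fourth was Hormad1, lower in the nicotine mice.

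In low-UMI pachytene-like barcodes 1 of 30 genes did not overlap (background 13.7%). Dmc1 was at 17.4, 14.8 and 15.3 CPM in control and 18.6, 27 and 23.5 CPM in nicotine mice, a log2 fold change of 0.53 (edgeR adjusted p = 0.621). Sycp1 was at 99.3, 159.8 and 149.8 CPM in control and 109, 83.6 and 105 CPM in nicotine mice, which overlap (-0.47, edgeR adjusted p = 0.336). It passed the threshold when control replicate 1 was left out, with a log2 fold change of -0.63 and an edgeR adjusted p of 0.0439. The 2 clusters of this class were mixed unevenly. Zfp820-led barcodes numbered 113, 176 and 185 in control and 126, 81 and 140 in nicotine mice. Neb-led ones numbered 206, 208 and 228 in control and 229, 275 and 263 in nicotine mice. The part of this mixture in the differences was not tested, and the single-cluster fits that follow were chosen after seeing the data. Dmc1 had means of 28.1 CPM in the Neb-led and 8.14 CPM in the Zfp820-led cluster. With the Neb-led cluster fitted alone, the log2 fold change of Dmc1 was -0.06 (edgeR adjusted p = 0.995) and that of Sycp1 -0.61 (edgeR adjusted p = 0.751). With the Zfp820-led cluster alone, that of Sycp1 was 0.01 (edgeR adjusted p = 1.00).

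In the spermatid classes, genes without overlap were 3 of 32 in early round (background 7.14%), 5 of 39 in round (8.17%), 5 of 35 in elongating (14%), 2 of 25 in low-UMI round (16.9%) and 1 of 18 in low-UMI elongating spermatid-like cells (16.5%). A shallow round and 2 shallow elongating spermatid-like clusters had 4 of 22 (6.92%), 0 of 14 (11.6%) and 2 of 20 (11.5%). A separate early round spermatid-like cluster (504 cells, median 15752.5 UMIs) had 2 of 21 (10.9%). There Syce2 was at 49.7, 39.2 and 42.9 CPM in control and 89.5, 57.9 and 68.8 CPM in nicotine mice, a log2 fold change of 0.70 (standard error 0.16, edgeR adjusted p = 0.324). With doublet candidates left in, it was 0.79 with an edgeR adjusted p of 0.00986.

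**Figure D5:**
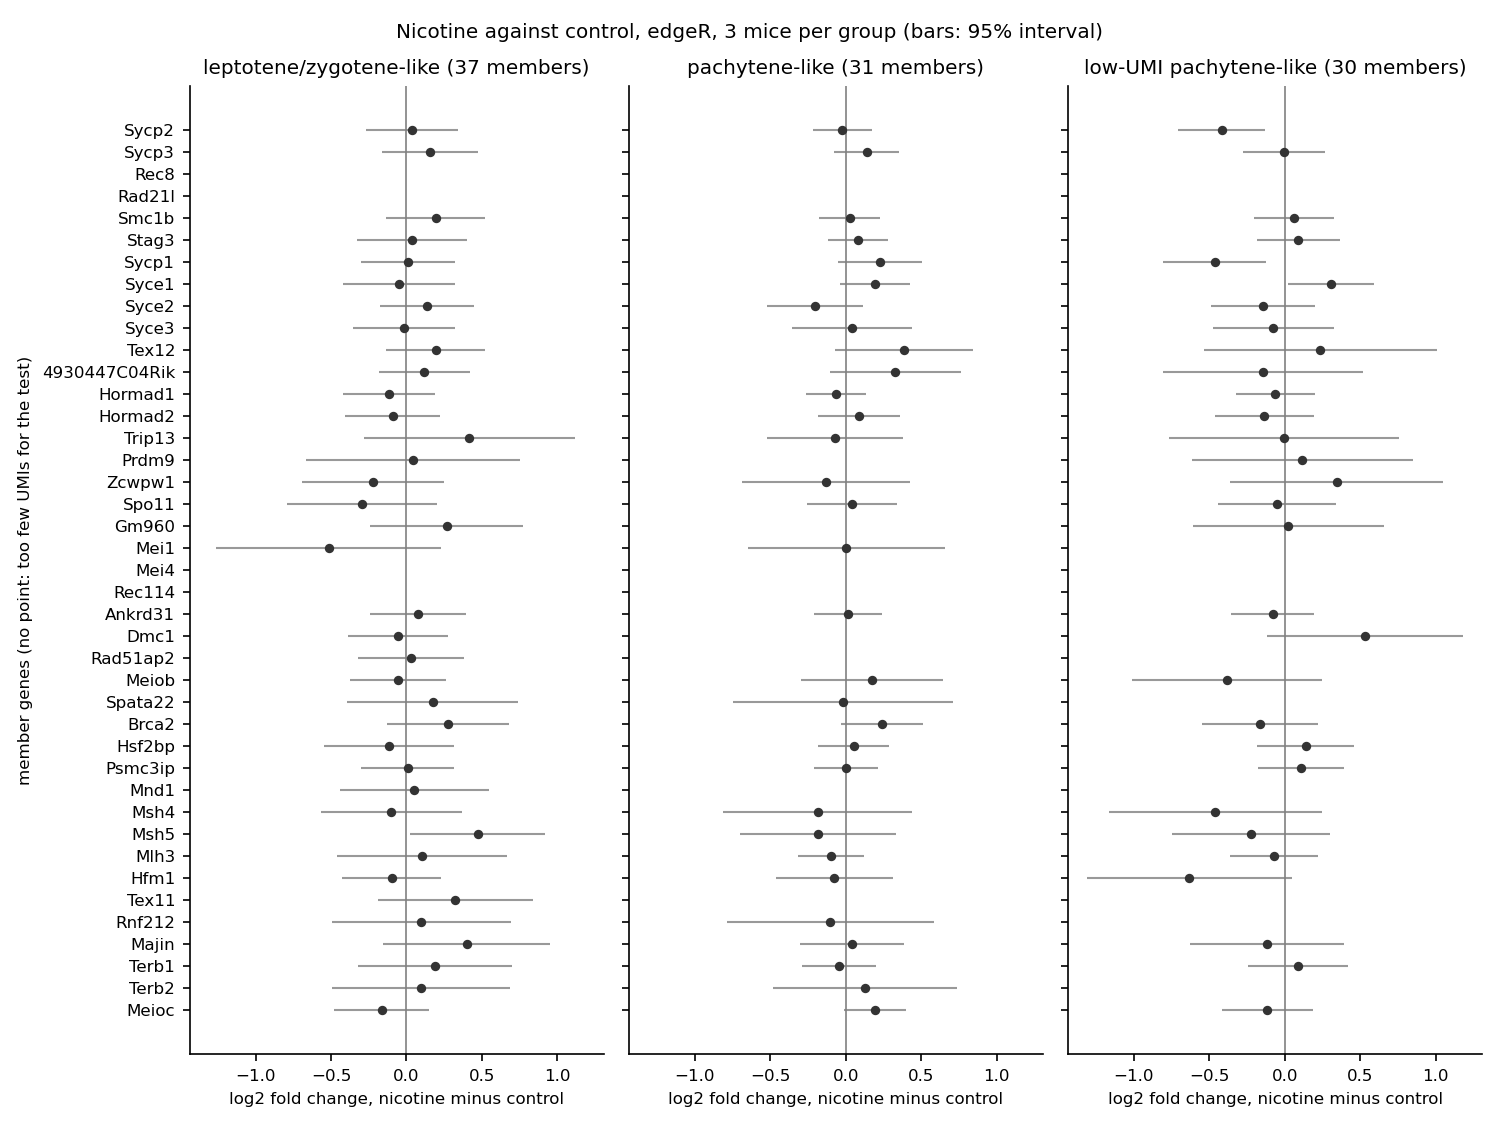
Log2 fold change of each gene tested, nicotine minus control, with its 95% interval from edgeR (3 mice per group), in leptotene/zygotene-like (37 genes), pachytene-like (31) and low-UMI pachytene-like cells (30). Points lie on both sides of 0, and in pachytene-like cells 31 of 31 intervals stay within 2-fold.

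The numbers of cells behind these levels differed between classes. Pachytene-like cells made up 1.95%, 1.85% and 1.87% of kept cells in control and 3.23%, 2.74% and 2.64% in nicotine mice. Diplotene/dividing-like cells made up 0.796%, 1.34% and 0.481% in control and 0.262%, 0.465% and 0.324% in nicotine mice. The deep pachytene-like cluster (97 cells) went the other way from the pachytene-like class, with 0.194%, 0.315% and 0.145% in control and 0.0908%, 0.111% and 0.0858% in nicotine mice, and the separate early round spermatid-like cluster made up 1.02%, 1.28% and 0.836% and 0.696%, 0.739% and 0.324%. The groups did not overlap in these 4 of 17 classes, each with a two-sided exact permutation p of 0.1, the smallest that 3 against 3 allows, and 0.425 after adjustment over 17 classes. Leptotene/zygotene-like cells, where 31 of the 41 genes were highest, made up 0.454%, 0.599% and 0.572% in control and 0.525%, 0.557% and 0.572% in nicotine mice, which overlap.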

How the data were processed

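Testes of 3 control and 3 nicotine mice were profiled as 6 single-cell libraries. The authors deposited whole-number UMI counts per gene and barcode, made with Cell Ranger 7.2.0 on GRCm38/mm10 per the submitters' processing notes. The use of intronic reads or strand is not given in the sources. Barcodes were kept from 500 UMIs and 250 genes upward, if mitochondrial UMIs stayed below 20%. The highest-scoring Scrublet doublet candidates were removed, 8.62% to 9.76% per library at 0.8% per 1000 barcodes.

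Cells were clustered with scanpy 1.11.5 (2000 variable genes, 30 components, 15 neighbours, resolution 1), and spermatocyte clusters once more, both without the 41 genes. A cluster was named from at least 3 raised markers. For each class, the UMIs of a mouse were added up and compared with edgeR 4.0.16 (TMM, filterByExpr, quasi-likelihood), with Benjamini-Hochberg adjustment over all genes, and with DESeq2 1.42.0 as the alternative. The scripts were tested on simulated data. Libraries held 67853893 to 88329607 UMIs, whose number limits the precision of low levels. Samples were grouped by their labels, which name each mouse a biological replicate. Log2 ratios between clusters used 10 CPM added to both. Cell shares were compared by exact permutation. Alternatives were another test, no count filter, a replicate block, other clusterings and depth minimums, doublets kept, and each mouse left out.

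The genes and lists were chosen with earlier results of these data known. Named in the comparison of treatments were the genes called in any class, and in each spermatocyte class the 3 non-overlapping genes with the smallest p; Syce2 and Sycp1, called under an alternative, were added after their values were seen. Named in the account of levels were genes whose course differed from their role group, the extremes of each group, and Sycp3, Sycp1, Hormad1, Spo11, Dmc1, Prdm9, Rec8 and Meioc. Further genes, and the low-UMI levels, were picked after their values were seen. Gene positions come from GENCODE vM21 (GRCm38). Classes with under 20 cells in any mouse were not tested. Some genes of the pathway are not reported here.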

Additional observations from a re-analysis of the deposited data

How the results depend on the processing

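Among the 41 genes, edgeR and DESeq2 called 0 in 177 of 179 combinations of class and alternative. The exceptions were 1 gene (Syce2) in the separate early round spermatid-like cluster with doublet candidates left in, and 1 gene (Sycp1) in low-UMI pachytene-like barcodes without control replicate 1. Leaving out 1 mouse gave 0 to 1 in that class and 0 in the other classes. Of 171 log2 fold changes, 167 kept their direction and side of the threshold. In low-UMI pachytene-like barcodes 2 changed sign, to small values. These were Dmc1 (-0.0587) with the Neb-led and Sycp1 (0.00864) with the Zfp820-led cluster fitted alone, an alternative chosen after seeing the data. Sycp1 kept its direction with the Neb-led cluster fitted alone. The 45 summed shares did not move beyond the spread between mice. At resolution 2, levels in round spermatid-like cells were 75.1 CPM for Sycp1, 3.41 CPM for Dmc1 and 46.2 CPM for Rec8, and the low-UMI elongating median log2 ratio was 1.18. The cause was not tested.

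Whether same-numbered mice belong together is not settled by their correlations. These are not correlations of expression levels. They were taken across genes on the deviations of each mouse from the mean of its group, in log2 CPM with 10 CPM added. In no class were all 3 correlations of same-numbered mice above 0.1. The mice numbered 2 correlated at 0.70 in round and 0.58 in elongating spermatid-like cells. Those numbered 1 were at 0.002 and -0.27 there, and those numbered 3 at 0.15 and 0.12. In low-UMI elongating spermatid-like cells 5 of 6 mice correlated best with their own number, and fewer in the other classes. With the replicate block, 0 of the 41 genes were called. Over all genes the block gave 1 in leptotene/zygotene-like, 1 in joint, 3 in round, 1 in shallow round, 0 in elongating, 9 in the larger shallow elongating, 36 in low-UMI elongating, 0 in low-UMI pachytene-like and 192 in low-UMI round classes. Without the block, edgeR called 4 in low-UMI elongating and 67 in low-UMI round classes.

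Over all genes, no count filter gave calls in 13 of 15 classes, with at most 99 in a class. Listed in this paragraph are mainly counts that moved from the main fit. Without the filter these were 1 call in leptotene/zygotene-like, 7 in shallow leptotene/zygotene-like, 1 in joint, 1 in diplotene/dividing-like, 1 in early round and 3 in the separate early round classes. There were also 4 in round, 1 in shallow round, 32 in elongating, 8 in the larger shallow elongating, 12 in low-UMI elongating and 10 in low-UMI pachytene-like classes. DESeq2 gave 5 in elongating, 1 in round, 2 in low-UMI round and 0 in low-UMI elongating and low-UMI pachytene-like classes. Doublets left in gave 8 in separate early round, 8 in elongating, 2 in the larger shallow elongating, 1 in low-UMI elongating, 0 in low-UMI pachytene-like and 41 in low-UMI round classes. Resolution 2 gave 0 in low-UMI elongating and 403 in low-UMI round classes, and at least 1000 UMIs gave 41 in the latter. Single clusters gave 4 (first pachytene-like), 1 (Neb-led) and 0 (Zfp820-led). Leaving out 1 mouse gave 0 to 1 in leptotene/zygotene-like and joint, 0 to 2 in shallow leptotene/zygotene-like, pachytene-like and the larger shallow elongating, 0 to 3 in elongating, 0 to 8 in the smaller shallow elongating, 0 to 25 in low-UMI elongating, 0 to 83 in low-UMI pachytene-like and 4 to 163 in low-UMI round classes.

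Without 1 mouse, the nicotine minus control difference in cell share ranged from -0.0347 to 0.0380 percentage points for leptotene/zygotene-like, -0.0590 to 0.0383 for joint and -0.151 to 0.322 for low-UMI pachytene-like cells, and from 0.80 to 1.09 for pachytene-like, -0.718 to -0.288 for diplotene/dividing-like and -0.147 to -0.0410 for shallow leptotene/zygotene-like cells. Few UMIs per mouse limit Prdm9, Mei1 and Rec8 in leptotene/zygotene-like cells.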
